A study of Mus musculus with 16 samples.

Results

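The comparison described here is the effect of Δ9-tetrahydrocannabinol (THC) on the hippocampus of old mice, and its members are the 10 arrays of 12-month-old animals among the 16 arrays of the study. They were taken by their labels, which name 5 of them THC_Old and 5 control_Old. THC_Old mice had received 3 mg/kg per day of Δ9-THC for 28 days from a subcutaneous osmotic minipump, and control_Old mice the vehicle, ethanol, cremophor and saline, by the same route. Both groups were labelled as male C57Bl6/J mice, went through behavioural testing between day 33 and day 41, and were killed on day 46, so the RNA was taken after drug delivery had ended. The other 6 arrays, 3 from THC_Young and 3 from control_Young mice of 2 months under the same treatments, enter only where the response is compared between ages. Biotinylated cRNA from total hippocampal RNA was read on Illumina bead arrays.

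THC, the main psychoactive compound of cannabis, is a partial agonist of the cannabinoid receptor CB1, which is encoded by Cnr1 and sits mostly on the axon terminals of neurons. In the hippocampus CB1 is dense on the terminals of cholecystokinin interneurons and present on glutamatergic terminals, where its activation lowers transmitter release. Its natural ligands are anandamide and 2-arachidonoylglycerol, broken down chiefly by the enzymes of Faah and Mgll. The hippocampus carries spatial memory, and the study's title ties the drug in old mice to cognition, synapse formation and chromatin.

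Markers of sex went against the labels on some arrays, although every array is labelled male. Xist, the noncoding RNA made from the inactive X chromosome of females, was detected on 9 of the 16 arrays, where its log2 level was 11.5 to 12.3, and stood at 4.27 to 4.40 on the other 7. Eif2s3y, a gene of the Y chromosome, was detected on exactly those 7 arrays, at 7.62 to 9.45, and stood at 4.25 to 4.41 on the 9 with Xist. No array had both and none had neither, and the Y-linked demethylase gene Kdm5d split the arrays the same way. At 12 months Xist was detected on THC_Old replicates 2 and 4 and on control_Old replicates 3 and 5, so each group held 2 such arrays of 5. Results are therefore also given for the 6 arrays without Xist (3 THC, 3 vehicle) and the 4 arrays with it (2 THC, 2 vehicle). The plot of the 2 markers shows the split.

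**Figure D1:**
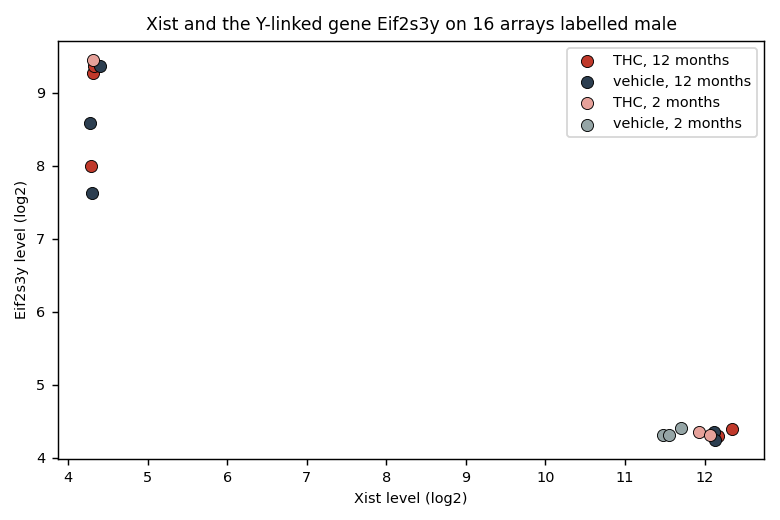
Each point is 1 array, with the log2 level of Xist on the x axis and of the Y-linked gene Eif2s3y on the y axis, coloured by treatment and age. The 9 arrays at the lower right have Xist at 11.5 to 12.3 and no Eif2s3y signal above background, and the 7 at the upper left have the reverse pattern.

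The 10 arrays were assigned to 4 slides by the long number that opens each array's barcode, since the labels name no slide. The slides are therefore inferred and not stated by the submitters. Slide 1 held THC_Old 1 with control_Old 1 and 2, slide 2 held control_Old 3 and 4, slide 3 held THC_Old 2, 3 and 4, and slide 4 held THC_Old 5 and control_Old 5. Only slides 1 and 4 held both treatments, each with 1 THC array, and the old arrays of slide 1 were all without Xist. Between 41.1% and 45.9% of probes were detected on each array. Pearson correlations between arrays were 0.959 to 0.990 within THC_Old, 0.967 to 0.988 within control_Old and 0.959 to 0.990 between the groups. The first principal component held 40.4% of the variance and set the arrays of slide 1, at -48.1 to -31.5, apart from the others, at 1.40 to 36.1.

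At this number of arrays 0 of 22625 probes (0%) differed between THC and vehicle at 12 months at an adjusted p under 0.05 (limma with Benjamini-Hochberg adjustment), and the smallest adjusted p was 0.916. At an unadjusted p under 0.05 there were 1080 probes (4.77%), 422 higher and 658 lower with THC. With 1 probe taken for each of 12020 genes, 45.8% of genes were higher and 54.2% lower, and the median log2 difference was -0.02. Over all probes the median absolute log2 difference was 0.12 and the median standard error 0.16. For 44 probes (0.194%) all 5 THC arrays lay above all 5 vehicle arrays, and for 98 probes (0.433%) all lay below. The genes below are given as values in that light: none passed the adjusted test or had an adjusted p under 0.916 in this fit, and differences are THC minus vehicle in log2 units with the standard error of the fit. The labels do not say that each array came from its own animal, so p-values measure the spread between these samples.

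On the lower side Ifitm2, an interferon-induced membrane protein that restricts virus entry, had the smallest p (unadjusted, 0.000227). Its log2 levels were 7.29, 7.27, 7.36, 7.21 and 7.24 on the 5 THC arrays and 8.06, 7.67, 7.61, 7.93 and 7.88 on the 5 vehicle arrays. The THC arrays lay close together and all under the lowest vehicle array, a difference of -0.56 ± 0.12, or 0.679 times the vehicle level. The difference was -0.59 on the arrays without Xist and -0.51 on those with it. Samd9l, another interferon-induced gene, was also lower on every THC array than on any vehicle array (-0.69 ± 0.18).

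In whole tissue, fewer cells of a type and less RNA per cell cannot be told apart. Foxc1, a forkhead factor needed for the meninges to form, was at 6.05, 5.58, 6.31, 6.05 and 6.17 with THC and 6.63, 7.04, 6.37, 6.79 and 7.06 with vehicle, without overlap (-0.75 ± 0.17). Fxyd5, a regulator of the sodium pump, differed by -0.99 ± 0.23, with THC_Old 3 above the lowest vehicle array. The gene's dimmer probes gave -0.47 and -0.38. Myl9, the regulatory light chain of smooth muscle myosin, ranged from 6.24 to 6.76 with THC and from 6.78 to 7.49 with vehicle, the groups just apart (-0.59 ± 0.15). Fn1, which encodes fibronectin, differed by -0.65 ± 0.18, but the gene's next brightest probe gave 0.08. F13a1, the coagulation factor XIII A chain made by macrophages at the borders of the brain, was at 4.98, 4.90, 5.30, 5.01 and 5.12 with THC and 5.87, 5.66, 5.28, 5.71 and 6.73 with vehicle. The groups overlapped only through THC_Old 3 and control_Old 3, and control_Old 5 was the highest of the vehicle arrays (-0.79 ± 0.21). Tnfrsf11b encodes osteoprotegerin, a decoy receptor for the bone resorption signal RANKL. In this fit it had the largest lower value among the 15 named genes, -1.02 ± 0.24. It was detected on 4 of 5 THC arrays and on all 5 vehicle arrays. With quantile normalization and no background correction Tnfrsf11b was at -0.40 and Fxyd5 at -0.68, so that rank depends on the processing.

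Ntng1 encodes netrin-G1, an adhesion molecule of axons, and read 9.94, 10.01, 9.93, 9.45 and 9.69 with THC against 10.33, 10.30, 10.24, 10.46 and 10.43 with vehicle. All THC arrays lay below all vehicle arrays (-0.55 ± 0.14). The next brightest of the 4 Ntng1 probes gave 0.08, while the dimmer ones gave -0.45 and -0.24, so the probes of this gene disagree in part. Nmbr, the neuromedin B receptor, was at 5.38, 5.26, 4.74, 4.80 and 5.27 with THC, detected on 3 of 5 arrays, and 6.01, 6.05, 5.94, 5.94 and 6.11 with vehicle, detected on all 5 (-0.92 ± 0.25). Cxxc4, an inhibitor of Wnt signalling, differed by -0.49 ± 0.13 and Ptk7, a receptor of planar cell polarity, by -0.51 ± 0.13, the latter detected on 1 THC array and all 5 vehicle arrays. Tspan8, a tetraspanin, was detected on no THC array and on 4 vehicle arrays, which gives a level at least 1.24-fold lower with THC when the dim arrays are set at the lowest detected signal. Adamtsl3, of the extracellular matrix, differed by -0.52 ± 0.14 and was detected on 1 THC and 4 vehicle arrays. Hdhd5 differed by -0.54 ± 0.13.

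On the higher side the smallest p belonged to Bet1, a SNARE protein of transport from the endoplasmic reticulum to the Golgi (0.53 ± 0.13, unadjusted p = 0.000729). Its levels were 6.13, 6.10, 6.37, 6.36 and 6.53 with THC and 5.51, 5.49, 5.99, 5.93 and 5.92 with vehicle. The groups did not overlap, but 3 vehicle arrays lay just under the lowest THC array, and the difference was 0.70 without Xist and 0.27 with it. Olig1, a transcription factor of the oligodendrocyte lineage, was at 12.48, 12.45, 12.13, 12.54 and 12.46 with THC and 12.00, 11.82, 12.12, 12.11 and 11.66 with vehicle. Here too every THC array was above every vehicle array, THC_Old 3 by the least (0.47 ± 0.14). Nktr, a cyclophilin-related protein, and Ring1, a subunit of Polycomb repressive complex 1, were likewise without overlap, at 0.39 ± 0.12 and 0.34 ± 0.11. Their next brightest probes gave 0.37 and 0.29, and the dimmest Nktr probe gave -0.19.

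Iqgap2, a scaffold protein of the actin cytoskeleton, had the largest difference of the 15 named higher genes, 1.14 ± 0.36 or 2.21-fold. It read 9.71, 10.42, 8.96, 10.34 and 9.59 with THC and 8.95, 8.98, 9.56, 7.97 and 7.83 with vehicle, with wide scatter in both groups and the THC arrays 2 and 4, which carry Xist, highest. Pdyn, the precursor of the dynorphin opioid peptides, was at 10.40, 9.53, 9.14, 9.55 and 9.71 with THC and 9.25, 9.06, 9.02, 8.69 and 8.83 with vehicle (0.70 ± 0.21). THC_Old 1 was the highest for Pdyn and THC_Old 3 fell inside the vehicle range. Rasd1, a small G protein induced by glucocorticoids, differed by 0.58 ± 0.14 and was detected on 4 THC arrays and 1 vehicle array. E2f3, a cell cycle factor, differed by 0.71 ± 0.20, but its next brightest probe gave 0.07. Ltv1, needed for assembly of the small ribosomal subunit, Polr3e, a subunit of RNA polymerase III, and Micall1, of endocytic recycling, differed by 0.56, 0.48 and 0.39. The next brightest Micall1 probe gave 0.04. Cdh8, a cadherin of synapses, differed by 0.51 ± 0.16, with its next brightest probe at 0.11, and Tmcc3 differed by 0.51 ± 0.16. For Snrnp70, a protein of the U1 spliceosomal particle (0.53 ± 0.17), and Dnajb3, a chaperone partner (0.42 ± 0.12), the next brightest probes gave -0.05 and -0.04. Dnajb3 was detected on 3 THC arrays and no vehicle array, at least 1.09-fold higher.

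**Figure D2:**
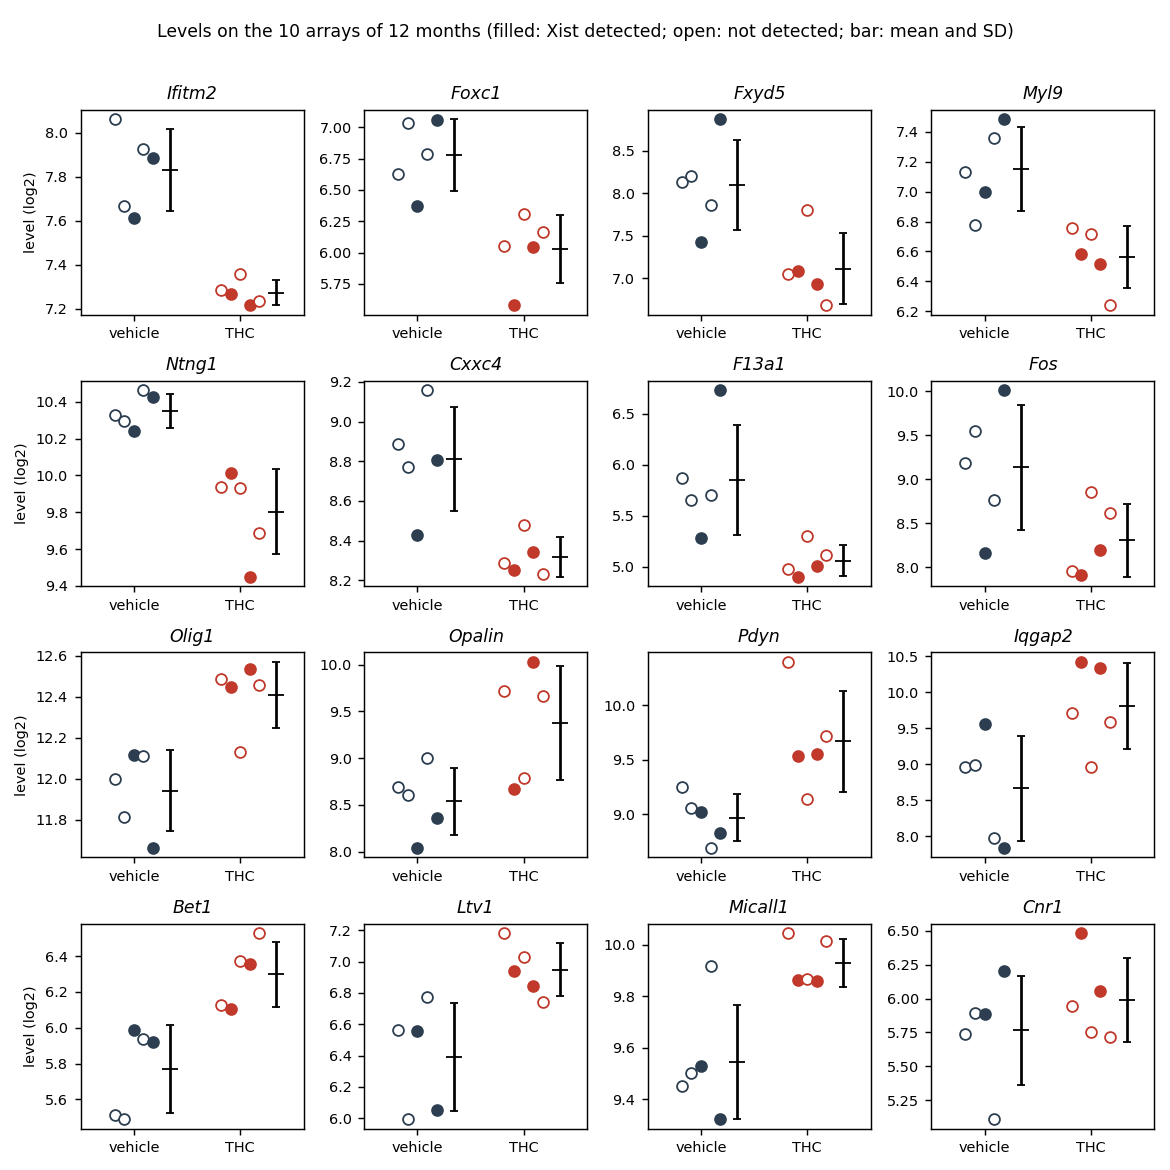
Log2 levels of 16 genes on the 5 vehicle (dark) and 5 THC (red) arrays of 12 months, filled where Xist was detected, with the group mean and SD as a bar. Ifitm2, Foxc1, Myl9, Ntng1, Olig1 and Bet1 show no overlap between the groups, while the Cnr1 groups overlap throughout.

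The endocannabinoid system holds the drug's receptors and the enzymes that make and break down their ligands. Of 16 listed genes 9 were bright enough to test, 4 were higher and 5 lower, and the median difference was -0.11, against -0.02 for all genes. None had an unadjusted p under 0.05, against 1.75% of all genes higher and 3.23% lower. At those shares a list of 9 would hold few or none. Cnr1 was at 5.94, 6.48, 5.75, 6.06 and 5.72 with THC and 5.74, 5.89, 5.89, 5.11 and 6.20 with vehicle. The 2 groups overlapped over nearly the whole range, control_Old 4 being the lowest of the 10 arrays (0.23 ± 0.19, unadjusted p = 0.251), and within slide 4 the THC array differed by -0.48. Faah differed by 0.18 ± 0.14 and Mgll by -0.11 ± 0.15. Cnr2, the receptor of immune cells, and Dagla, a synthase of 2-arachidonoylglycerol, are on the array but were detected on too few arrays to be tested.

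Lists of genes by pathway or cell type are described next by their counts, and beyond the 2 genes with the smallest p in each direction their members are named as examples chosen after their values were seen. Immediate early genes, which neurons transcribe within minutes of strong activity, were lower with THC in 17 of 20 cases, against 54.2% of all genes, with a median difference of -0.32. At an unadjusted p under 0.05, 4 were lower and none higher, against 3.23% and 1.75% of all genes. Promoter sequences are shown for these 4, Fos, Dusp1, Fosb and Ier3. A known route of induction for some genes of the list runs through a cyclic AMP response element with the core letters TGACG. The windows are RefSeq's, in build GRCm38.p6, and cover the 250 bases before the annotated start, 5′ to 3′ on the gene's strand. Capitals mark TGACG on either strand and the full palindrome TGACGTCA, which holds the core on both strands.
Fos, chr12:85473640-85473889, plus strand: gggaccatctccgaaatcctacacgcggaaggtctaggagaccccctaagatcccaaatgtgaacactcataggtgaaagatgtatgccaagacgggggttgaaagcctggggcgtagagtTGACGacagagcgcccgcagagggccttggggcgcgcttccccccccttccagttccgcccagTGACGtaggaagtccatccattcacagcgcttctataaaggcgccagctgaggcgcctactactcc
Dusp1, chr17:26508473-26508722, minus strand: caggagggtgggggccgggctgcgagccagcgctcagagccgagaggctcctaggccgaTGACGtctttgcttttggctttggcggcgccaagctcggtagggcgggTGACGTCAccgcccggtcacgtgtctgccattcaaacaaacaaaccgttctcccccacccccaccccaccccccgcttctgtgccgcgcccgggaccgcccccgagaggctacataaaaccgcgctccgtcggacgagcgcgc
Fosb, chr7:19310046-19310295, minus strand: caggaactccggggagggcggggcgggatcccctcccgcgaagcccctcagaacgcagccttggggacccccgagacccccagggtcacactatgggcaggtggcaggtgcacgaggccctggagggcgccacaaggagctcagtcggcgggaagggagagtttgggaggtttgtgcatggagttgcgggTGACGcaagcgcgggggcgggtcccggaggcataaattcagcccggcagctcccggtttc
Ier3, chr17:35821463-35821712, plus strand: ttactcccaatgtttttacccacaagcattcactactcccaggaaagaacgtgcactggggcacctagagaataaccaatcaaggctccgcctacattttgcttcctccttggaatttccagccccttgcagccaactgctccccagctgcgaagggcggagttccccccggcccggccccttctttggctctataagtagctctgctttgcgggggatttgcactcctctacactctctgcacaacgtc

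The Fos window has the core 129 and 66 bases before the start, the Fosb window 60 bases before it, and the Dusp1 window at 191 bases and, within the palindrome, at 143 and 140. The Ier3 window does not hold these letters. Of the 20 tested genes 16 had a window, and 11 of those (68.8%) held TGACG, against 19.8% of 27025 genes with a window. The palindrome was in 1 of the 16 and in 1.77% of all genes. These are counts of letters and say nothing of which factor was bound.

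Fos, a component of the AP-1 transcription factor, was at 7.95, 7.91, 8.85, 8.20 and 8.61 with THC and 9.18, 9.55, 8.17, 8.76 and 10.01 with vehicle. THC_Old 1 and 2 were lowest and control_Old 5 highest, and control_Old 3 lay among the THC arrays (-0.83 ± 0.29, unadjusted p = 0.0107). Ier3, an early gene of the stress response, differed by -0.45 ± 0.16. Dusp1, a phosphatase that switches off MAP kinases, was at 9.51, 9.70, 10.56, 10.02 and 10.31 with THC and 10.51, 10.80, 10.16, 10.56 and 11.08 with vehicle, again highest on control_Old 5 (-0.60 ± 0.22). Fosb differed by -0.44 ± 0.21 and Npas4, an activity-dependent factor of neurons, by -0.74 ± 0.40 (unadjusted p = 0.0795). Nr4a2 differed by -0.41 ± 0.38. Arc, which controls AMPA receptor uptake at synapses, differed by -0.69 ± 0.38 (unadjusted p = 0.0891), and Homer1, a scaffold of glutamate receptors, by 0.04 ± 0.14. The mean level of the list was 8.27, 8.49, 8.85, 8.71 and 8.65 on the THC arrays and 8.95, 9.17, 8.62, 8.55 and 9.43 on the vehicle arrays. The median was -0.33 on the arrays without Xist, -0.28 on those with it, and -0.79 and -0.73 within slides 1 and 4. Over the alternative settings tried, single left-out arrays aside, it ranged from -0.79 to -0.08. Neocortex markers, a list that shares Nr4a2 and Egr3 with it, moved the same way: 13 of 14 were lower (median -0.27) and their mean level was also highest on control_Old 5, at 8.78. The part of that tissue in the early gene values was not tested.

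Myelin and oligodendrocyte genes were higher with THC in 11 of 11 cases, against 45.8% of all genes, with a median difference of 0.48, and 6 of the 11 were higher at an unadjusted p under 0.05, against 1.75% of all genes. Opalin, a membrane protein of mature oligodendrocytes, was at 9.71, 8.67, 8.78, 10.03 and 9.66 with THC and 8.69, 8.60, 8.04, 9.00 and 8.36 with vehicle. THC_Old 1, 4 and 5 were above every vehicle array and THC_Old 2 and 3 inside the vehicle range (0.83 ± 0.27). Mobp, a structural protein of compact myelin, differed by 0.66 ± 0.27, and Mbp, Mal, Aspa and Gal3st1 also had unadjusted p under 0.05, with differences of 0.44, 0.75, 0.48 and 0.40. The list mean was 10.63, 9.61, 9.97, 10.44 and 10.30 with THC and 9.73, 9.68, 9.29, 10.09 and 9.57 with vehicle, so the groups overlapped through THC_Old 2 and 3 and control_Old 4. The median was 0.46 without Xist and 0.54 with it. Of 9 tested genes of oligodendrocyte precursors 7 were higher (median 0.22), among them Olig1, Sox10 (0.53), a master regulator of the lineage, and Enpp6 (0.61 ± 0.25), a marker of newly forming oligodendrocytes, while Pdgfra, the growth factor receptor of precursors, differed by 0.10 and Cspg4 by -0.30.

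Striatum markers were higher on some of the same arrays. Their list mean was 8.27, 7.37, 7.12, 7.24 and 7.83 with THC and 7.15, 7.22, 7.15, 7.24 and 7.18 with vehicle, highest on THC_Old 1 and 5, and 12 of 13 genes were higher (median 0.45). Rgs9, a regulator of dopamine receptor signalling in the striatum, differed by 0.62 ± 0.28 and Drd2, the D2 dopamine receptor, by 0.69 ± 0.30. The striatum is crossed by bundles of myelinated fibres, and its part in the myelin values was not tested. The myelin list mean was 10.63 and 10.30 on THC_Old 1 and 5, the arrays highest for the striatum list. It was 10.44 on THC_Old 4, where the striatum list was at 7.24, within the vehicle range. With the striatum mean as a covariate the myelin median was 0.25.

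Genes of the meninges and fibroblasts were lower with THC in 15 of 16 cases, median -0.52, against 54.2% of all genes lower, and 9 were lower at an unadjusted p under 0.05, against 3.23%. Besides Foxc1 these included Slc22a6, an organic anion transporter (-0.99 ± 0.31), and the transporters Slc47a1 (-1.27), Slc13a3 (-0.62) and Slc6a13 (-0.62), the collagen gene Col1a1 (-0.58) and the proteoglycans Fmod (-0.74) and Bgn (-0.48). The list mean was 6.04, 5.94, 6.41, 5.77 and 5.91 on the THC arrays and 6.40, 6.43, 6.18, 6.61 and 6.95 on the vehicle arrays. Control_Old 5 was the highest and THC_Old 4 the lowest, and THC_Old 3 and control_Old 3 crossed the other group's range. The median was -0.31 without Xist and -0.71 with it.

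Markers of vessel walls and blood lay on the same side. Of 17 endothelial and mural genes 13 were lower (median -0.16), led by Myl9 and Acta2, the smooth muscle actin (-0.71 ± 0.23), while the pericyte genes Kcnj8 and Rgs5 were at 0.22 and 0.30. All 6 tested blood genes were lower (median -0.35), Hbb-bs, a beta globin, by -0.40 with an SE of 0.25, and their mean ranged from 8.58 to 9.11 on the THC arrays and from 8.82 to 9.70 on the vehicle arrays, with control_Old 5 highest. On the arrays without Xist the blood median was -0.07, and within slide 1 it was 0.05. How much of the meningeal, vascular and complement values goes with membranes or blood left on the dissected tissue was not tested.

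Of the immune lists, only the interferon-induced and complement genes held any at an unadjusted p under 0.05. Of 17 interferon-induced genes 11 were lower (median -0.18), and Bst2 and Irf8 were at 0.21 and 0.18. Ifitm2 and Ifitm1 (-0.53 ± 0.18), 2 of the 17, were lower at an unadjusted p under 0.05, against 3.23% of all genes. Of 10 complement genes 6 were lower (median -0.03). C2 (-0.79 ± 0.26) and Serping1, the C1 inhibitor (-0.72 ± 0.22), were the lowest of them. These 2 of the 10 had an unadjusted p under 0.05, again against 3.23% of all genes. C1qa, C1qb and C1qc, which microglia make, lay between -0.04 and 0.05. Inflammation genes were lower in 10 of 11 cases with a median of -0.07, and 7 of the list, Il1b, Il6 and Tnf among them, were detected on too few arrays to be tested. MHC class I genes had a median of -0.06 (5 higher, 7 lower), and microglial markers one of 0.01 (5 higher, 5 lower).

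Synaptic genes differed little. Genes of vesicle release were lower in 16 of 21 cases, but their median was -0.04. None had an unadjusted p under 0.05, against 1.75% of all genes higher and 3.23% lower. Syp, the vesicle protein synaptophysin, was at 13.89, 13.99, 13.96, 14.01 and 13.91 with THC and 13.98, 14.01, 14.02, 13.94 and 14.01 with vehicle, a difference of -0.04 ± 0.10, and Syn1, synapsin 1, differed by -0.14 ± 0.10. Postsynaptic and adhesion genes were higher in 15 of 24 cases (median 0.03), with Dlg4, the scaffold PSD-95, at 0.12 ± 0.17 and Gphn, the gephyrin of inhibitory synapses, at 0.05 ± 0.09. Lrrc4c, which encodes the binding partner of netrin-G1, was at 0.27. Among glutamate receptors (median 0.07, 9 of 15 higher) Gria1, the GluA1 subunit of AMPA receptors, was at 12.05, 12.44, 12.04, 12.65 and 12.48 with THC and 11.77, 11.78, 12.49, 11.92 and 11.44 with vehicle, overlapping through control_Old 3 (0.45 ± 0.17, unadjusted p = 0.018; next brightest probe 0.48). Grm8, a presynaptic metabotropic receptor, differed by -0.45 ± 0.20. The GABA-A receptor list had a median of -0.05 (2 higher, 5 lower), with Gabrb2 at 0.43 ± 0.15 and its next brightest probe at -0.09.

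The study's title bears on chromatin, and its lists had medians near zero. Of 24 genes for histone acetylation 11 were higher and 13 lower (median -0.04). Crebbp, the acetyltransferase CBP, was at 6.77, 7.49, 6.92, 7.39 and 6.96 with THC and 6.78, 6.73, 6.83, 6.10 and 7.51 with vehicle, with overlap throughout (0.31 ± 0.26). Crtc2, a coactivator of CREB, differed by 0.34 ± 0.16, the deacetylase gene Hdac5 by -0.28 ± 0.13 and Hdac2 by 0.21 ± 0.12. Of the 24 genes only Crtc2 and Hdac5, 1 higher and 1 lower, had an unadjusted p under 0.05. Over all genes the shares were 1.75% higher and 3.23% lower. DNA and histone methylation genes had a median of -0.03 and none at an unadjusted p under 0.05, against the same shares of all genes. Bdnf, the brain-derived neurotrophic factor, was at 9.16, 8.95, 8.58, 8.87 and 8.89 with THC and 9.03, 9.17, 8.96, 8.47 and 8.70 with vehicle, a difference of 0.02 ± 0.18. The neurotrophin and growth factor list had a median of 0.02, with Igf2 at -0.48 ± 0.34 and Kl, also a choroid plexus gene, at 1.40 ± 0.67. Its mean was 8.92, 8.32, 8.35, 8.37 and 8.73 with THC and 8.48, 8.44, 8.52, 8.25 and 8.37 with vehicle, highest on THC_Old 1 and 5. Neurogenesis genes had a median of 0.04 (6 higher, 4 lower), with Neurod1, a factor of young granule neurons, at 0.66 ± 0.28 and Dcx, which marks migrating young neurons, at -0.14.

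Markers of the hippocampus's own cell types were detected: 7 of 11 listed dentate genes, 7 of 8 CA1 genes and 10 of 12 CA3 and CA2 genes could be tested. Dentate granule cell genes were higher in all 7 tested cases (median 0.43), with Btg1, a brake on proliferation, at 0.31 ± 0.13 and Lct at 0.76 ± 0.36. Their list mean was 8.03, 8.56, 8.01, 8.12 and 7.84 with THC and 7.88, 7.84, 8.16, 7.59 and 6.93 with vehicle, and control_Old 5 was well under every other array of 12 months. The dentate median was 0.17 without Xist and 0.81 with it, and 0.18 and 0.95 within slides 1 and 4. CA1 markers had a median of -0.16 and CA3 and CA2 markers one of 0.08. Interneuron markers had a median of 0.09, but Reln, the secreted guidance protein reelin, was at 10.30, 10.99, 11.03, 10.25 and 10.59 with THC and 11.04, 11.35, 11.12, 11.23 and 11.47 with vehicle, without overlap (-0.61 ± 0.20, unadjusted p = 0.00729). Astrocyte markers were level (median 0.01), Gfap at 0.01 ± 0.15. Thalamus markers were lower in 10 of 12 cases (median -0.29), with Rgs16 at -0.63 and Slc17a6, the vesicular glutamate transporter of thalamic cells, at -0.28 ± 0.43.

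Choroid plexus markers split the arrays rather than the groups. Ttr, transthyretin, which choroid plexus epithelium makes in great amount, was at 13.76, 5.90, 7.90, 10.07 and 14.30 with THC and 5.52, 6.11, 13.90, 6.96 and 7.62 with vehicle. It was high on THC_Old 1, 4 and 5 and on control_Old 3, and the difference was 2.36 ± 1.63. Kl, the anti-ageing gene klotho, was at 9.36, 6.97, 6.62, 7.38 and 9.67 with THC and 6.91, 6.35, 8.13, 6.10 and 5.48 with vehicle (1.40 ± 0.67, unadjusted p = 0.0511). The same arrays, THC_Old 1 and 5 and control_Old 3, had the highest Kl and the highest choroid plexus list means, 7.73, 8.04 and 6.87, against 5.36 to 5.77 on the other 7. In all 16 of 18 choroid plexus genes and 8 of 9 ependymal genes were higher (medians 0.52 and 0.37). None had an unadjusted p under 0.05, against 1.75% of all genes higher and 3.23% lower. The choroid plexus median was 1.27 on the arrays without Xist and -0.58 on those with it, so its sign turns with the arrays taken.

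The lists for metabolism and stress had medians close to zero. Oxidative phosphorylation stood at 0.01 (11 higher, 10 lower), cholesterol synthesis at -0.11 (4 higher, 9 lower) and heat shock and chaperones at 0.11 (12 higher, 5 lower). Mvd, an enzyme of the mevalonate pathway, had the smallest p of the cholesterol list (-0.37 ± 0.15). The glucocorticoid list was at -0.04 (4 higher, 10 lower), with the sulfotransferase gene Sult1a1 at -0.62 ± 0.18, -0.19 without Xist and -1.26 with it. The circadian list was at -0.09 (6 higher, 9 lower), with Npas2, a partner of the clock factor Bmal1, at -0.53 ± 0.18.

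**Figure D3:**
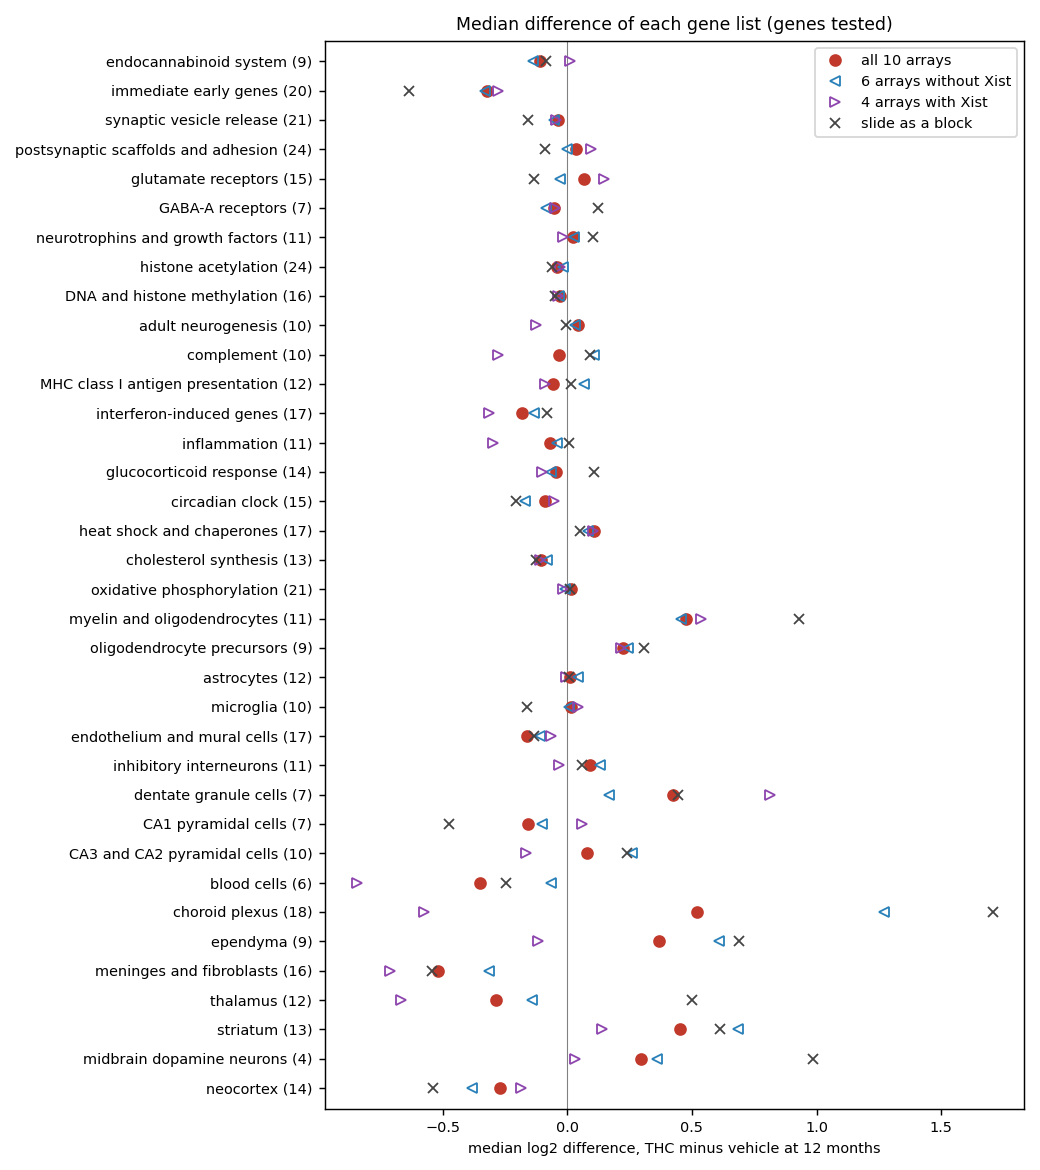
Median log2 difference (THC minus vehicle at 12 months) of each of 36 gene lists, with the number of genes tested in brackets, over all 10 arrays, over the 6 without Xist, over the 4 with Xist, and with the slide as a block. The myelin, immediate early gene and meningeal lists keep 1 side of zero in all 4. So do others, among them the striatal, neocortical, blood, midbrain dopamine and dentate lists, while the choroid plexus, ependymal and thalamic lists do not. The 4 settings share arrays and are not independent.

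**Figure D4:**
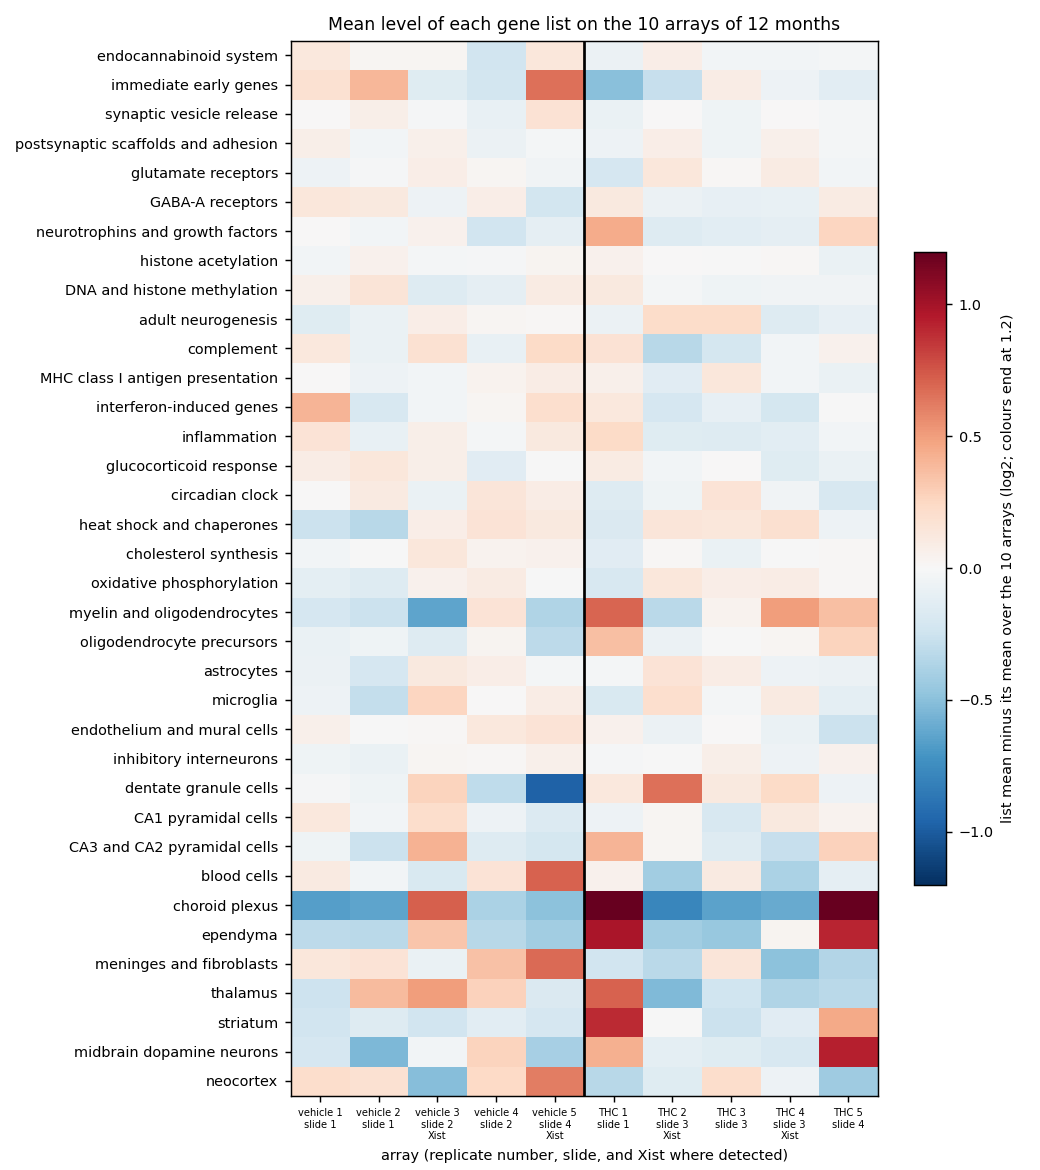
Mean level of each list on the 10 arrays of 12 months, centred on its mean over them (log2), vehicle arrays to the left of the line and THC arrays to the right. THC_Old 1 and 5 and control_Old 3 stand out for choroid plexus (7.73, 8.04 and 6.87 before centring), and control_Old 5 for blood, meningeal, neocortical and immediate early genes.

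With the slide as a block, 31 of 22625 probes (0.137%) passed an adjusted p under 0.05, 23 higher and 8 lower with THC. At 12 months this fit rests on the comparison of THC_Old 1 with control_Old 1 and 2 and of THC_Old 5 with control_Old 5, with the arrays of 2 months linking the slides. Leaving out THC_Old 1 brought the count to 0, leaving out control_Old 1 to 1, and leaving out control_Old 2 or THC_Old 5 to 2. It was 5 without control_Old 5, 67 without control_Old 3 and 151 without THC_Young 2. The smallest p belonged to Cpm, a carboxypeptidase, which read 8.63, 7.43, 7.59, 7.69 and 8.06 with THC and 7.65, 7.66, 7.47, 7.58 and 7.03 with vehicle. It was highest on THC_Old 1 and 5, and its difference was 1.02 in the block fit (adjusted p = 0.00781, limma) and 0.40 without the block. The next brightest Cpm probe gave -0.09 without the block. Klk6, an oligodendrocyte protease, was at 8.17, 4.83, 5.28, 6.09 and 7.15 with THC and 5.92, 6.23, 5.85, 6.11 and 5.09 with vehicle, 2.04 in the block fit (adjusted p = 0.0124, limma) and 0.46 ± 0.55 without it. Slc6a3, the dopamine transporter of midbrain neurons, was detected at 12 months only on THC_Old 1 and 5, at 6.53 and 7.21, and on no vehicle array, at least 1.52-fold higher (2.73 in the block fit). Slc10a4, a vesicular protein of monoamine and cholinergic neurons, was detected on the same 2 arrays. Drd2 (1.36), Arsg, a lysosomal sulfatase (1.37), Nmral1 (0.89), Dgkk (1.43) and Eps8l2 (0.85) were higher in the block fit. Mpped1 (-0.99), Rab3b, a vesicle G protein (-0.84), and Nr4a2 (-1.37) were lower. These 10 genes had adjusted p-values of 0.0259 to 0.0474 in the block fit (limma). Among the 10 arrays of 12 months THC_Old 1 and 5 had the highest choroid plexus, ependymal, striatal and midbrain dopamine list means. For midbrain dopamine these were 6.52 and 7.03, others 5.56 to 6.36. Of the 12 genes of that list only 4 were tested, and 7, Th among them, were detected on too few arrays. All 4 were higher (median 0.29). Slc6a3, 1 of them, was detected at 12 months on no vehicle array, so its direction was not independent of the filter. Control_Young 2 was higher than THC_Old 1 and 5 for choroid plexus (8.74) and ependyma (7.31), and THC_Young 1 for midbrain dopamine (8.79). The part of those tissues in the block fit's calls was not tested. The comparison within slide 4 also sets an array without Xist against one with it. With Xist detection as a second block 30 probes were called, and with it as the only block 0.

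The response at 12 months was set against that at 2 months, where THC_Young replicates 1 and 3 and all 3 control_Young arrays carried Xist. At 2 months 0 probes passed and 1384 (6.12%) had an unadjusted p under 0.05, and the difference between the 2 responses gave 0 and 1179 (5.21%). Across 12020 genes the differences at both ages had a Pearson r of 0.0772 and a Spearman rho of 0.129, as a description, since genes share arrays and are not replicates. Ntng1 had the smallest p for the difference of responses (unadjusted p = 4.7e-05, adjusted p = 0.949, limma). At 2 months it read 10.38, 9.98 and 10.32 with THC and 9.59, 9.23 and 9.82 with vehicle, all THC arrays above, the opposite order to 12 months (0.68 ± 0.18 against -0.55 ± 0.14). Cxxc4 ran the same way, at 8.78, 8.85 and 8.91 with THC and 8.49, 8.10 and 8.31 with vehicle (0.55 ± 0.16 against -0.49 ± 0.13). Atp2a1, a calcium pump, was at 0.92 ± 0.22 against -0.32 ± 0.17, Dnase1l2 at 0.55 ± 0.19 against -0.45 ± 0.15, and Fnbp4, a formin-binding protein, at -0.41 ± 0.15 against 0.35 ± 0.11. At 12 months the next brightest probes of Dnase1l2 and Fnbp4 gave -0.12 and 0.03. Among the lists, myelin genes were higher in 8 of 11 cases at 2 months (median 0.09), against 50.6% of all genes, and early genes in 13 of 20 (median 0.07). Choroid plexus genes were higher in 0 of 18 (median -1.03) and dentate genes in 7 of 7 (median 0.47). Control_Young 2 stood apart in both lists. Choroid plexus means were 5.96, 5.51 and 6.34 on the THC_Young arrays and 6.40, 8.74 and 5.72 on the control_Young arrays. Dentate means were 7.99, 7.79 and 8.45 on the THC_Young arrays and 7.99, 6.79 and 7.80 on the control_Young arrays. The difference between ages was not tested for lists.

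**Figure D5:**
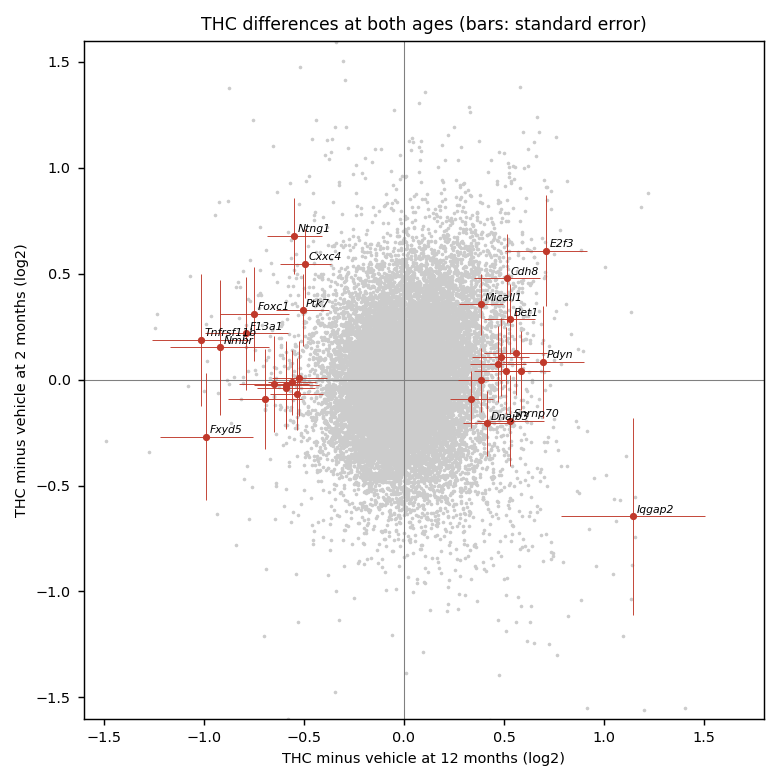
Log2 difference, THC minus vehicle, at 12 months (x axis) and 2 months (y axis) for every tested probe in grey (20 of 22625 lie outside the drawn range) and for the 30 genes with the smallest p at 12 months in red with standard errors, named where they stand clear. Ntng1 and Cxxc4 lie below zero at 12 months and above it at 2 months, while Micall1, Cdh8 and E2f3 lie above zero at both. Each named gene is drawn by its brightest probe. The next brightest Micall1, Cdh8 and E2f3 probes gave 0.04, 0.11 and 0.07 at 12 months.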

How the data were processed

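Expression was measured in 16 Illumina bead arrays of mouse hippocampus. The deposited scanner table holds 45281 probes as log2 intensity values with a detection p-value per array, per the file headers and the values, and 26 cells of the detection column of control_Young 1 held text and were read as not detected. Partek is named, without a version, per the submitters' processing notes, and the authors' deposited series matrix values equalled quantile-normalized log2 scanner values to within 0.00713.

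The scanner values were turned back to the linear scale and normalized with neqc of limma 3.58.1 (R 4.3.3, offset 16), with the background taken from negative controls inferred from the detection p-values. The 22625 probes that 3 or more of the 16 arrays detected at p under 0.05 were tested. A single model with 4 group means was fitted with lmFit and eBayes, and p-values were adjusted by Benjamini-Hochberg over all tested probes. Platform annotation gave 34885 probes 1 gene symbol, 18 several and 10378 none. A gene stands for its brightest tested probe over all 16 arrays (12020 genes). The named genes are the 15 with the smallest p in each direction, the 2 of each list in each direction, the 5 of the difference between ages, the 10 of the slide block fit and a set of candidate genes, and unnamed gene models were left out; 1 gene the rule took is not reported here. The genes and 36 lists were chosen with earlier results of these data known. Groups came from the labels, and replicate numbers follow accession order and pair nothing. Where no array of a group detected a probe, the fold is given as a bound, against the higher of the probe's own signal and the lowest detected signal of each array. The number of arrays limits the precision. Alternatives covered normalization, filter, slide, variance model, array weights, probe choice, composition covariates and left-out arrays, and those on Xist were chosen after seeing the data. The fit was tested on simulated data. Python 3.11.15 with matplotlib 3.10.9 made the figures.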

Additional observations from a re-analysis of the deposited data

Results flagged for a closer look

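In each group of 5 arrays the gap between the highest or lowest array and its neighbour was set against the whole range. Of 248 such groups, for the named genes and the list means at 12 months, 9 held an array past the 95% limit of Dixon's test, where chance gives about 5%. Among the THC arrays these were THC_Old 3 for Olig1 at a log2 level of 12.13, below its group, and THC_Old 1 for Atp2a1 at 5.422, for the mean of the DNA and histone methylation list at 8.156 and for the mean of the thalamus list at 8.684, each above its group. Among the vehicle arrays, control_Old 3 stood above its group for Ttr at 13.9, for the choroid plexus list at 6.866 and for the ependymal list at 6.316, and below it for Grm8 at 6.236. Control_Old 5 stood above its group for Igf2 at 12.2.

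For 3 named genes the THC and vehicle arrays did not overlap at either age and stood in opposite order at the 2 ages. Ntng1 and Fnbp4 were named for a small p of this difference, and Ntng1 and Ptk7 for a small p at 12 months. The flag therefore restates their choice in part. The response at 12 months minus that at 2 months was -1.227 for Ntng1, -0.8338 for Ptk7 and 0.7571 for Fnbp4. The adjusted p of each difference was 0.949 (limma), so it did not pass the test, and the sexes shown by Xist were not balanced at 2 months.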

How the results depend on the processing

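With 5 arrays in each group, signal near background and 4 slides limit what these data can show. The count of called probes at 12 months was 0 in every setting tried except with the slide as a fixed block (31) and with Xist detection and slide as fixed blocks (30, chosen after seeing the data), and it stayed 0 for each left-out array of the unblocked fit. The count at 2 months and for the difference between ages was 0 throughout. Probes without overlap numbered 142 as reported and 356 with no filter. As fewer arrays are compared the count grows by construction, to 1238 without slide 1, 1790 without THC_Old 1 and 5, 1568 without the arrays with Xist and 188 to 635 over the single left-out arrays. For named genes 1458 values counted as unchanged. These kept their direction and their side of the threshold or, taken within slide 1 or 4, stayed within the spread. Of the others, 22 passed the threshold with a block, 44 changed sign, and 88 taken within slide 1 or 4 moved by more than the spread. List medians kept within the spread in 576 cases and moved by more in 72. The size of many differences depended on background correction. With quantile normalization and none, F13a1 was at -0.29, Nmbr at -0.32, Ptk7 at -0.15, E2f3 at 0.25 and Rasd1 at 0.19. Ifitm2 was at -0.38 and Olig1 at 0.46 in that setting. List medians there were 0.23 for choroid plexus, -0.27 for meninges and fibroblasts, -0.26 for immediate early genes and 0.44 for myelin. The log2 differences of named genes that changed sign, whose cause was not tested, were as follows. With the slide as a fixed block they were Atp2a1 0.0202 and Slc17a6 0.14, and with Xist detection added Atp2a1 0.0204 and Slc17a6 0.144. With array weights they were Dgkk -0.125, Bdnf -0.0064 and Gfap -0.0214. The choroid plexus covariate gave Dgkk -0.0485, Eps8l2 -0.0047, Bdnf -0.00629 and Gfap -0.00484, and the striatum covariate Klk6 -0.359, Mpped1 0.00971, Slc10a4 -0.145, Dgkk -0.467, Eps8l2 -0.199, Mgll 0.136, Bdnf -0.0388, Syp 0.0248 and Nr4a2 0.179. The next brightest probe gave Dnajb3 -0.0369, Snrnp70 -0.0544, Ntng1 0.0827, Fn1 0.0822, Cpm -0.0897, Bdnf -0.125, Syn1 0.00634 and Gabrb2 -0.0914. Without slide 1 they were Dgkk -0.187, Eps8l2 -0.0282 and Mgll 0.00165, without THC_Old 1 and 5 Klk6 -0.445, Slc10a4 -0.0832, Dgkk -0.493, Eps8l2 -0.217, Slc6a3 -0.129, Mgll 0.136, Ttr -0.0667, Bdnf -0.0661, Dlg4 -0.00894, Gfap -0.0429 and Nr4a2 0.119, and without the arrays with Xist Bdnf -0.0154 and Gfap -0.0387. Leaving out 1 array at a time gave Klk6 from -0.00618 to 0.83, Dgkk from -0.0987 to 0.456, Eps8l2 from -0.0393 to 0.298, Bdnf from -0.0744 to 0.102 and Gfap from -0.0697 to 0.0815. Within slide 1 the sign also changed for Atp2a1 0.124, Igf2 0.117 and Hbb-bs 0.00944, and within slide 4 for Dnajb3 -0.0793, Snrnp70 -0.0083, Dnase1l2 0.00765, Cnr1 -0.484 and Crebbp -0.557. No paired analysis was possible because the labels carry no replicate numbers, and the slides that hold both groups served only as a block and for the values within slides.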
